A study of Cricetiscus sungorus with 24 samples.

Results

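The genes described here hold, carry or sense iron, or bind zinc and copper, and their mRNA was followed in the kidney of the Siberian hamster (Djungarian hamster, listed as Cricetiscus sungorus). The list of 10 genes was chosen by name, with earlier results of these data known. It held the ferritin heavy chain Fth1, the ferritin light chain Ftl1, the ferritin receptor Ncoa4 and the metallothioneins Mt1 and Mt2. It also held transferrin Trf, the transferrin receptor Tfrc, the iron regulatory protein Ireb2, hepcidin Hamp and ceruloplasmin Cp. A row was found for 8 of the 10 among the 9681 genes of experiment 1 and for the same 8 among the 15842 genes of experiment 2, and no row was found for Hamp or Cp in either. Where a gene had several transcripts, the transcript with the most counts stood for it.

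Experiment 1 compared adult males kept in a long photoperiod of 16 hours of light a day (LP) with males moved to a short photoperiod of 8 hours of light for 12 weeks (SP12wk) or 28 weeks (SP28wk), with 4 hamsters in each group. Experiment 2 compared adult females that had all spent 8 weeks in short photoperiod. Of these, 6 received vehicle injections (SAL, dimethyl sulfoxide with saline) and 6 received 18 µg of ovine prolactin (PRL) in the same vehicle, once a day on 3 days. No allele or transgene was involved. The experiments differed in sex and were sequenced on separate flow cells, so no test was made between them.

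Cells take up iron bound to transferrin through the transferrin receptor, and store what is not in use inside ferritin, a hollow shell built of heavy chains, which oxidise the iron, and light chains, which help the core to form. NCOA4 delivers ferritin to the lysosome so that the stored iron can be released. When iron is scarce, iron regulatory proteins, including the product of Ireb2, bind to ferritin mRNA and block its translation, and bind to transferrin receptor mRNA and protect it, so that ferritin is controlled largely after its mRNA is made. Metallothioneins are small proteins rich in cysteine that bind zinc and copper, and their genes respond to metals and to glucocorticoids. In the kidney, tubule cells reclaim filtered transferrin and metallothionein, and most circulating transferrin and hepcidin is made by the liver.

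Levels are CPM, the share of a library's counts scaled so that all genes add up to 1e+06, after 1 transcript had been kept per gene. They were not divided by transcript length, and they are used here to compare libraries and not genes. Libraries of experiment 1 held 15687 to 57585 counts, so that 1 count was worth 17.4 to 63.8 CPM, and those of experiment 2 held 174053 to 756523 counts, with 1 count worth 1.32 to 5.75 CPM. A gene at 0 in a library may have reached the level of 3 counts, which was 52.1 to 191 CPM in experiment 1 and 3.97 to 17.2 CPM in experiment 2. This limit covers counting error only. In experiment 1 LP replicate 2 stood apart: 10.7% of its counts lay on ribosomal protein genes and its mean rank correlation with the other libraries was 0.414. LP replicate 3 had 15.2% on those genes, and the other 10 libraries had 18.5 to 23.7%. In experiment 2 the share was 16.99 to 25.49% in all 12. Reads of hamster mRNA were assigned to mouse transcripts, so a level also depends on how alike the hamster and mouse sequences are. In bulk kidney, fewer cells of a type and less RNA per cell cannot be told apart.

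None of the members passed an adjusted p of 0.05 in any of the 4 comparisons by edgeR's quasi-likelihood test, adjusted over all genes tested by the Benjamini-Hochberg method. Of the 5086 genes tested in experiment 1, this threshold called 1 (0.0197%) when SP12wk was set against LP, 7 (0.138%) between SP28wk and SP12wk, and 11 (0.216%) between SP28wk and LP. Of the 10696 genes of experiment 2 it called 0 (0.0%) between PRL and SAL, where 522 had an unadjusted p under 0.05 and DESeq2 also called 0. DESeq2 also called 0 members in each comparison. All 8 members with a row were tested in experiment 2. In experiment 1, 7 were tested, since Trf had a count in too few libraries. At an unadjusted p under 0.05, Mt1 was higher in SP12wk than in LP, where 4.56% of all genes tested were higher and 2.69% lower at that level. Mt1 had a count in all 4 libraries of SP12wk, 2 of SP28wk and none of LP. It passed the filter of 4 libraries only through SP12wk, so neither this share nor its p is a test of it. Ftl1 was higher in SP28wk than in LP, against 6.61% of all genes higher and 1.97% lower. No member reached this level between SP28wk and SP12wk, where 4.6% of all genes were higher and 1.49% lower. Mt2 was higher and Trf lower in PRL than in SAL, against 2.54% and 2.34% of all genes.

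**Figure D1:**
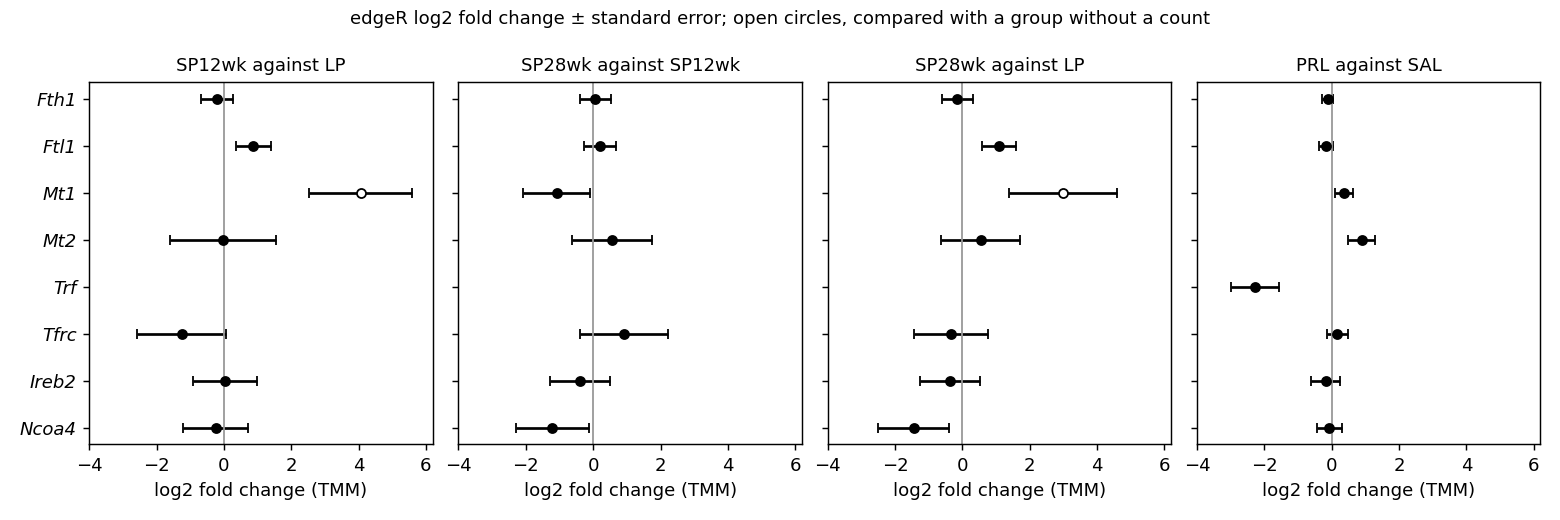
Log2 fold change of each member (dots, edgeR with TMM scaling) with its standard error (bars) in the 4 comparisons, on shared horizontal axes. Open circles mark Mt1 against LP, which had no Mt1 count, so that its position depends on the fit and is no measured fold. Trf in PRL against SAL, at -2.28, lies farthest below 0, and the Fth1 values lie between -0.21 and 0.06.

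The ferritin heavy chain was the most counted member, and with 1 transcript per gene its highest levels came from a pair of LP libraries. Fth1 (transcript NM_010239.2) had 4375, 8806, 7380 and 4622 CPM in LP replicates 1 to 4, from 93, 157, 133 and 119 reads. In SP12wk it had 4292, 3506, 5722 and 4804 CPM, and in SP28wk 4585, 3693, 4228 and 4585 CPM. The highest values were those of LP replicates 2 and 3, and the other LP values lay within the range of SP12wk. The means were 6296 ± 2158 CPM (SD, n = 4) in LP, 4581 ± 929 in SP12wk and 4272 ± 422 in SP28wk, and no neighbours in this order differed beyond their spread. With counts added over transcripts, LP replicates 2 and 3 were at 5323 and 5098 CPM, beside 5197 in SP12wk replicate 3. LP replicates 1 and 4 were at 3858 and 3980 CPM. The 2 Fth1 transcripts had the same counts, so this change came from the library totals and not from Fth1. The totals went from 17830 to 58987 counts in LP replicate 2 and from 18021 to 52179 in replicate 3, but from 21259 to 48209 in replicate 1. With counts added, the means were 4565 ± 753 CPM in LP, 4069 ± 900 in SP12wk and 3678 ± 162 in SP28wk.

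The log2 fold change of Fth1 was -0.21 (SE 0.46) in SP12wk against LP and -0.15 (SE 0.46) in SP28wk against LP, with adjusted p = 0.943 and 0.955 by edgeR's quasi-likelihood test. The ratio of mean CPM gave -0.46 and -0.56 instead, since it does not include the TMM scaling. LP replicates 2 and 3 had the lowest ribosomal protein shares of the experiment and also the highest Fth1 levels with 1 transcript per gene. Without them the fitted values were 0.02 and 0.03, and since this leaves out the highest LP values, it does not test what made LP higher. Between SP28wk and SP12wk the fitted value was 0.06 with TMM and -0.10 with the size factors of DESeq2 (edgeR adjusted p = 0.980 with TMM). It was also negative with TMM under a stricter filter (-0.05), so no direction is given. TMM placed the median of all genes at 0.16 in SP28wk against SP12wk and 0.18 in SP28wk against LP, and the DESeq2 size factors placed it at 0.004 and -0.03.

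**Figure D2:**
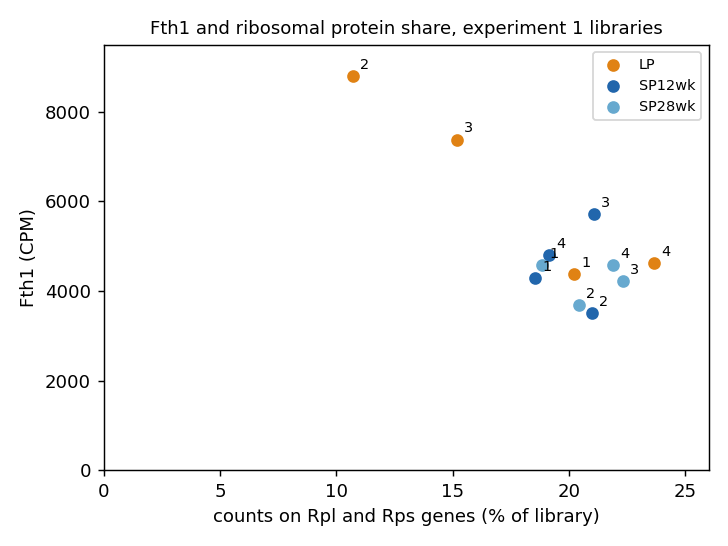
Fth1 level (CPM, vertical) against the share of counts on ribosomal protein genes (percent of the library, horizontal) in the 12 libraries of experiment 1. Each point is a library with its replicate number, coloured by group. LP replicates 2 and 3 lie apart at the upper left, with 8806 and 7380 CPM at 10.7% and 15.2%. With counts added over transcripts their Fth1 levels were 5323 and 5098 CPM, beside 5197 in SP12wk replicate 3.

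In females the Fth1 levels of PRL and SAL differed by less than the spread between animals. In SAL Fth1 ran from 3932 to 5444 CPM with a median of 4509, and in PRL from 3282 to 5002 with a median of 4590. The groups overlapped. The means were 4555 ± 573 CPM in SAL and 4393 ± 636 in PRL (SD, n = 6), from 9632 and 10752 reads. The log2 fold change was -0.11 (SE 0.16), with adjusted p = 0.999 by edgeR's quasi-likelihood test. This standard error was the smallest of the 8 members, and it was larger than the difference.

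The ferritin light chain had fewer counts and varied more between hamsters. Ftl1 (NM_010240.2) had 329, 224, 388 and 544 CPM in LP, from 7, 4, 7 and 14 reads. It had 163, 446, 1255 and 650 CPM in SP12wk and 316, 622, 828 and 747 in SP28wk. In SP28wk 3 of the 4 values lay above every LP value, and SP12wk held both the lowest and the highest value of the experiment. The means were 371 ± 133 CPM in LP, 629 ± 463 in SP12wk and 628 ± 225 in SP28wk (SD, n = 4).

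The log2 fold change of Ftl1 was 0.88 (SE 0.51) in SP12wk against LP and 1.09 (SE 0.50) in SP28wk against LP. The latter had p = 0.0293 and adjusted p = 0.538 by edgeR's quasi-likelihood test, and the exact permutation test of mean CPM gave p = 0.114. It was 0.65 without LP replicates 2 and 3 (edgeR adjusted p = 0.972). The value of SP12wk against LP fell to 0.40 without SP12wk replicate 3, the library with 1255 CPM. Between SP28wk and SP12wk the log2 fold change was 0.21 (SE 0.47), with edgeR adjusted p = 0.980, and the ratio of mean CPM was 1.00.

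In experiment 2 Ftl1 ran from 389 to 705 CPM in SAL, with a median of 498, and from 285 to 566 CPM in PRL, with a median of 531. The ranges overlapped, with SAL replicate 1 highest and PRL replicate 3 lowest. The means were 512 ± 112 and 478 ± 109 CPM (SD, n = 6), with a log2 fold change of -0.16 (SE 0.21) and adjusted p = 0.999 by edgeR's quasi-likelihood test. A second entry, the mouse pseudogene Ftl1-ps2, took up a like number of reads, 1263 in SAL and 1357 in PRL beside 1122 and 1193 for Ftl1. Its level followed that of Ftl1 over the 12 libraries (Pearson r = 0.986). Counts of Ftl1 and of this copy cannot be told apart here, so the Ftl1 values are uncertain in level. In experiment 1 the copy had 490 ± 161 CPM in LP, 802 ± 373 in SP12wk and 722 ± 207 in SP28wk.

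**Figure D3:**
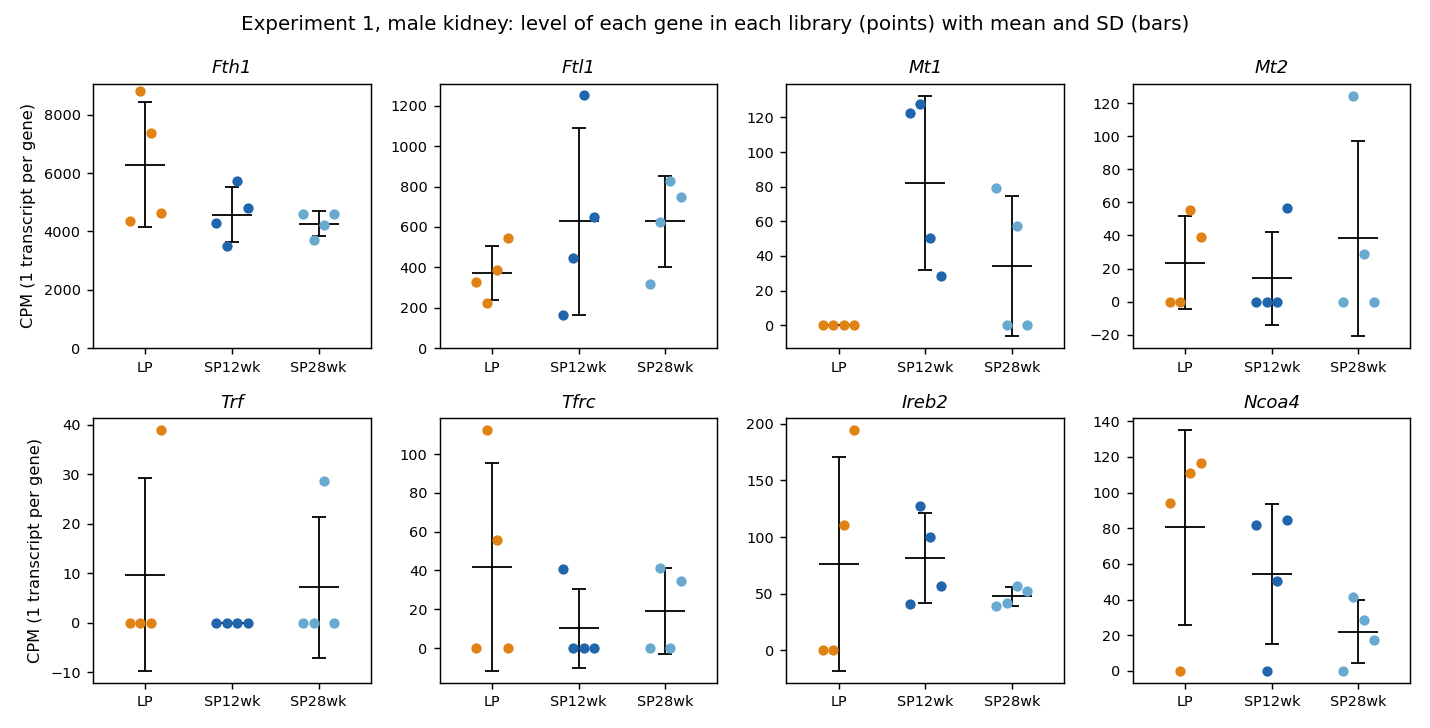
Level (CPM, vertical) of the 8 members in each library of experiment 1 (points), with the mean and SD of each group of 4 (horizontal and vertical bars). Fth1 and Ftl1 are above 0 in every library, Mt1 is at 0 in all 4 LP libraries, and the other panels rest on 0 to 5 reads per library.

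The ratio of heavy to light chain counts does not depend on how a library is scaled. It was 13.3, 39.3, 19.0 and 8.50 in the LP libraries, 26.3, 7.86, 4.56 and 7.39 in SP12wk, and 14.5, 5.93, 5.10 and 6.14 in SP28wk. LP replicate 2, the library that stood apart, had the highest ratio, and the other 3 LP values lay within the range of the short photoperiod libraries. The ratios of LP replicate 2 and SP12wk replicate 1 rested on 4 Ftl1 reads each, where the copy Ftl1-ps2 had 5 and 10 reads. The ratio thus also depends on how reads fell between Ftl1 and this copy. The medians were 16.1 in LP, 7.62 in SP12wk and 6.04 in SP28wk. On the log2 scale, with 0.5 added to each count, SP28wk was lower than LP by a difference of -1.18 and SP12wk by -0.88. The two-sided exact permutation test gave p = 0.0857 and 0.257, and 0.343 and 0.686 after adjustment over the 8 ratio tests, where 4 against 4 libraries cannot go below 0.0286. Leaving out 1 library at a time moved the SP28wk difference between -1.50 and -0.80 and the SP12wk difference between -1.35, without SP12wk replicate 1, and -0.50, without LP replicate 2. SP28wk and SP12wk differed by -0.31 (exact permutation p = 0.6).

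In experiment 2 the same ratio was 6.84 to 12.8 in SAL with a median of 8.98 and 7.54 to 11.6 in PRL with a median of 8.87. The difference of PRL and SAL on the log2 scale was 0.05 (exact permutation p = 0.764), against an SD of 0.33 and 0.25 within the groups. Over the 12 libraries of experiment 2 the levels of Fth1 and Ftl1 had a Pearson r of 0.532 (permutation p = 0.0764, adjusted over 4 relations p = 0.306) and a Spearman rho of 0.357 (permutation p = 0.256). It was 0.126 within SAL and 0.767 within PRL, and 0.338 without SAL replicate 3 and PRL replicate 3, the libraries farthest from the median of Fth1. In experiment 1 r was -0.198 (permutation p = 0.537), rho was -0.077 (permutation p = 0.816), and r was 0.385 without LP replicates 2 and 3.

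**Figure D4:**
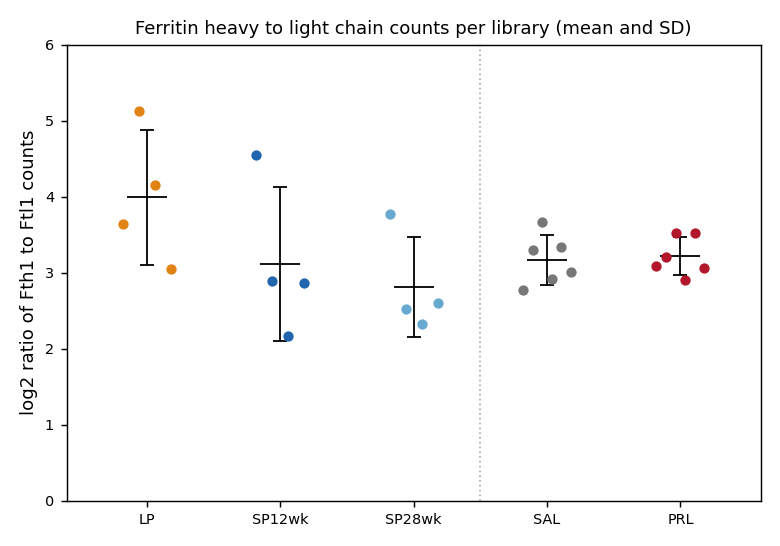
Log2 ratio of Fth1 to Ftl1 counts (vertical, with 0.5 added to each count) in each library (points) with the mean and SD of each group (bars). The 4 libraries of each male group stand left of the dotted line, and the 6 of each female group right of it. The LP mean is 3.99 with a wide spread, and SAL and PRL sit at 3.17 and 3.22.

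The ferritin receptor Ncoa4 was counted at only 0 to 3 reads per library in experiment 1. LP libraries had 2, 0, 2 and 3 reads, SP12wk libraries 2, 0, 1 and 3, and SP28wk libraries 0, 1, 1 and 1. The means of 80.4 ± 54.4, 54.2 ± 39.4 and 21.9 ± 17.6 CPM (SD, n = 4) stood in the order LP, SP12wk, SP28wk, with overlap between neighbours. The log2 fold change of SP28wk against LP was -1.45 (SE 1.05), with adjusted p = 0.788 by edgeR's quasi-likelihood test and exact permutation p = 0.143. The pooled counts, 3 reads against 7, gave a ratio of 0.250 with a 95% counting interval of 0.0417 to 1.10. This interval includes 1.

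With the deeper libraries of experiment 2, Ncoa4 (NM_001033988.2) ran from 0 to 45.1 CPM in SAL, with a median of 31.6, and from 18.4 to 59.8 CPM in PRL, with a median of 28.5. SAL replicate 6 had 0 reads where the other SAL libraries had 7 to 24. The means were 29.6 ± 15.7 and 32.4 ± 14.1 CPM (SD, n = 6), and the log2 fold change was -0.07 (SE 0.36, edgeR adjusted p = 0.999). The ratio of mean CPM gave 0.13, of the opposite sign, so no direction is given. All 6 listed transcripts of Ncoa4 had the same counts in experiment 2, so the form of the mRNA cannot be told apart.

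Mt1 was the only member with 2 groups that did not overlap, SP12wk and LP, and this rested on very few reads. Mt1 (NM_013602.3) had no read in any of the 4 LP libraries. The SP12wk libraries had 3, 2, 1 and 1 reads, or 123, 127, 50.2 and 28.3 CPM, and the SP28wk libraries had 2, 0, 2 and 0 reads. Every SP12wk library was thus above every LP library, as for 1.12% of all genes tested, and SP28wk overlapped both. Since Mt1 passed the filter only through its SP12wk reads, this share is no test of the difference. The 7 reads of SP12wk, 73.3 CPM in the pooled libraries, were 2.03-fold higher than LP when LP is set to 3 counts over the group, 36.2 CPM. This fold leaves out the counting error of the 7 reads, so it is not a lower limit. However, the level in each SP12wk library was below the 85 to 191 CPM that 3 counts stood for in that library, or equal to it in replicate 1, and the limit in LP libraries was 117 to 168 CPM.

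For Mt1 in SP12wk against LP, edgeR's quasi-likelihood test gave adjusted p = 0.577. The adjusted p ran from 0.431 to 1 over the alternatives, and DESeq2 gave 1. Under the stricter filter, which asked for a count in 8 of 12 libraries, Mt1 was not tested. The two-sided exact permutation test of mean CPM gave p = 0.0286, the smallest that 4 against 4 libraries allow, and 0.923 after adjustment over all genes. With a read in every SP12wk library and none in LP, the unadjusted permutation p could take no other value. Since Mt1 passed the filter only through SP12wk, none of these p-values is a test of the difference. Mt1 was 82.1 ± 50.4 CPM in SP12wk and 34.0 ± 40.3 in SP28wk (SD, n = 4), with a log2 fold change of -1.09 (SE 1.00, edgeR adjusted p = 0.980). For SP28wk against LP, with 4 reads against 0, the pooled level of SP28wk, 28.2 CPM, lay below the limit of LP, and so no fold is given (edgeR adjusted p = 0.628).

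Mt2 (NM_008630.2) did not share this order. Its reads were 0, 0, 1 and 1 in the LP libraries, 0, 0, 0 and 2 in those of SP12wk, and 0, 3, 1 and 0 in those of SP28wk, with means of 23.6 ± 28.1, 14.1 ± 28.3 and 38.3 ± 59.0 CPM (SD, n = 4). All 3 groups overlapped, and their log2 fold changes of -0.02, 0.56 and 0.54 had standard errors of 1.18 to 1.57 and edgeR adjusted p = 0.955 to 1. A ratio of Mt1 to Mt2 counts could be formed in only 2 LP libraries and 1 SP12wk library, since the rest had no Mt2 read. With 0.5 added to each count the log2 ratio was 2.29 higher in SP12wk than in LP (exact permutation p = 0.0857, adjusted p = 0.343) and with 1 added it was 1.5 higher, so its size rests on the number added. Over the 12 libraries the levels of Mt1 and Mt2 had r = -0.409 (permutation p = 0.178) and rho = -0.362 (permutation p = 0.244), and r = -0.246 without SP12wk replicates 1 and 2. Most of these libraries held 0 to 2 reads of either gene.

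In females Mt1 ran from 49.0 to 146 CPM in SAL, with a median of 70.5, and from 71.2 to 187 CPM in PRL, with a median of 90.2. In SAL 5 libraries lay at or under 76.8 CPM and replicate 1 at 146, while in PRL 3 libraries lay at 71.2 to 77.0 and 3 at 103 to 187. The means were 79.4 ± 34.0 and 110 ± 46.4 CPM (SD, n = 6), from 173 and 237 reads. The log2 fold change was 0.37 (SE 0.27), with adjusted p = 0.999 by edgeR's quasi-likelihood test, and the exact permutation test of mean CPM gave p = 0.212. Leaving out PRL or SAL libraries 1 at a time gave 0.06 to 0.64.

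Mt2 had 4, 3, 4, 7, 7 and 10 reads in SAL replicates 1 to 6 and 15, 20, 12, 1, 4 and 22 reads in PRL. In CPM it ran from 7.80 to 32.0 in SAL, with a median of 15.7, and from 4.60 to 62.4 in PRL, with a median of 25.8. PRL held both the lowest library, replicate 4, and the highest, replicate 6. The means were 17.2 ± 8.76 and 31.5 ± 20.4 CPM (SD, n = 6), and the log2 fold change was 0.89 (SE 0.40). By edgeR's quasi-likelihood test this had p = 0.0305 and adjusted p = 0.981, and the exact permutation test of mean CPM gave p = 0.158. Without PRL replicate 6 the log2 fold change was 0.53 (edgeR adjusted p = 0.992).

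PRL replicate 4 had 31 reads of Mt1 and 1 of Mt2, the highest Mt1 to Mt2 ratio of the experiment, and in the other 5 PRL libraries this ratio was 1.5 to 4.5. In SAL it was 2.29 to 13.5. The difference of PRL and SAL was -0.22 on the log2 scale (exact permutation p = 0.751). Over the 12 libraries Mt1 and Mt2 had r = -0.005 (permutation p = 0.987) and rho = 0.119 (permutation p = 0.716), and r was -0.426 without SAL replicate 1 and PRL replicate 6. Within SAL r was -0.339 and within PRL -0.101.

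**Figure D5:**
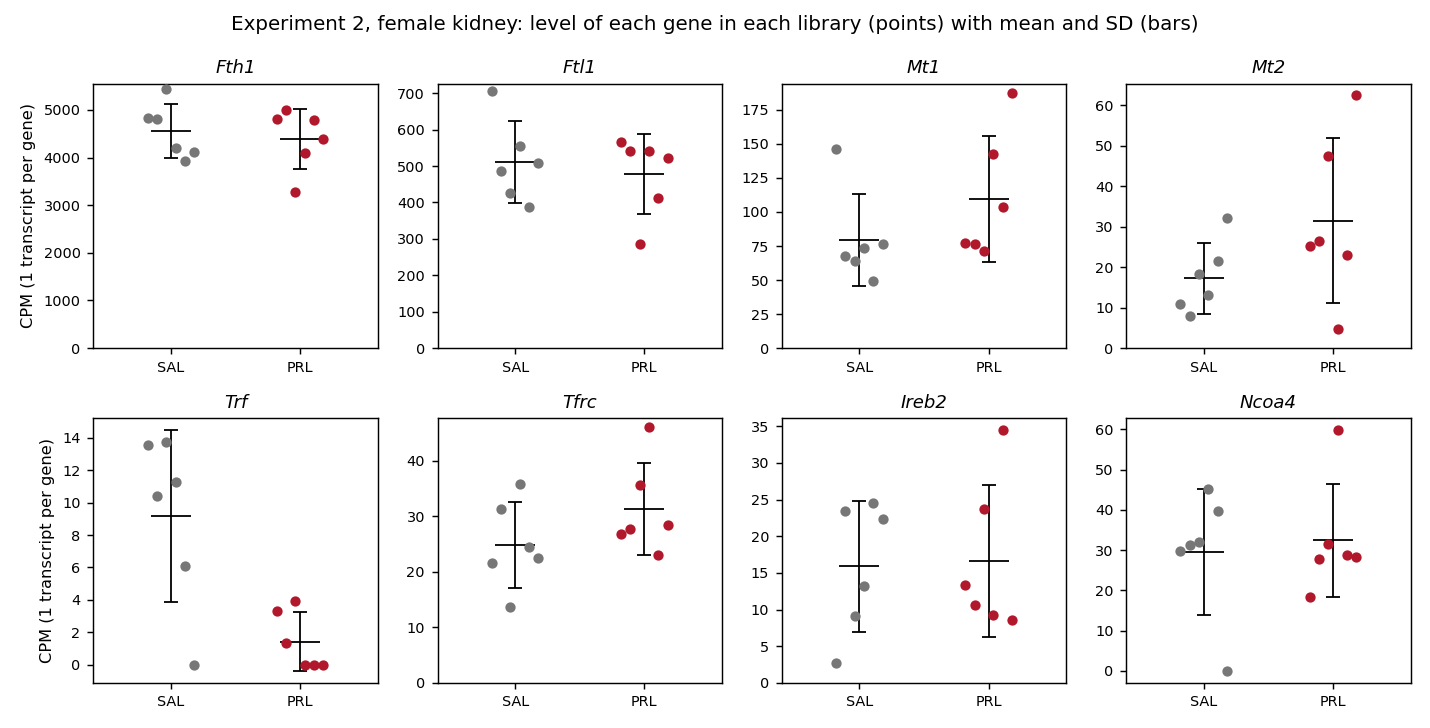
Level (CPM, vertical) of the 8 members in each library of experiment 2 (points), with the mean and SD of SAL and PRL (horizontal and vertical bars, n = 6 each). Trf lies at 0 to 13.7 CPM in SAL and 0 to 3.95 CPM in PRL. The groups overlap in all 8 panels, for Trf through SAL replicate 6 at 0 CPM.

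Transferrin, the iron carrier of plasma, had the largest fold change of the members in experiment 2, on 24 reads in all. Trf (NM_133977.2) had 5, 4, 3, 6, 2 and 0 reads in SAL replicates 1 to 6 and 2, 1, 1, 0, 0 and 0 reads in PRL. The SAL levels were 13.5, 10.4, 13.7, 11.3, 6.12 and 0 CPM, and the PRL levels 3.35, 1.32, 3.95, 0, 0 and 0 CPM. In 5 SAL libraries the measured level was above that of every PRL library, and the groups overlapped through SAL replicate 6, which had no read. However, 3 counts stood for 13.8, 17.2 and 8.51 CPM in PRL replicates 4, 5 and 6, which had no read. The true level of replicates 4 and 5 may thus have been as high as in SAL. The limit of replicate 6 lay under the SAL mean but above SAL replicate 5, at 6.12 CPM. The means were 9.17 ± 5.27 and 1.44 ± 1.80 CPM (SD, n = 6).

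The pooled ratio of PRL to SAL for Trf was 0.182, with a 95% counting interval of 0.0453 to 0.545. The log2 fold change was -2.28 (SE 0.70), with p = 0.00237 and adjusted p = 0.298 by edgeR's quasi-likelihood test, and the exact permutation test of mean CPM gave p = 0.0173, or 0.999 after adjustment over all genes. The log2 value ran from -2.75 to -2.13 over the alternatives in which Trf was tested. Under the stricter filter, which asked for a count in all 12 libraries of experiment 2, Trf was not tested. Its adjusted p was lowest, 0.0782, without SAL replicate 6, and 0.999 by DESeq2. The liver makes most transferrin, and the liver markers gave 384 ± 102 CPM in SAL and 363 ± 146 in PRL, nearly all from Ttr. Ttr alone had 382 CPM in SAL and 356 in PRL. The other listed liver markers, Alb, Fgb, Serpina1a and Apob, had higher means in PRL than in SAL, on 3 to 9.56 reads each. The part of liver transcripts in the Trf values was not tested. Albumin (Alb) had 3 reads over the 12 libraries. In experiment 1 Trf had 1 read in an LP library, 1 in an SP28wk library and none in SP12wk, and was not tested.

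The transferrin receptor Tfrc was barely counted in males, at 0, 2, 1 and 0 reads in the LP libraries, 1, 0, 0 and 0 in those of SP12wk, and 0, 1, 0 and 2 in those of SP28wk. Over 7 reads in 12 libraries edgeR gave log2 fold changes of -1.25, 0.91 and -0.34 with standard errors of 1.10 to 1.33 (adjusted p = 0.835 to 0.980). In experiment 2 Tfrc (NM_001357298.1) ran from 13.7 to 35.7 CPM in SAL, with a median of 23.4, and from 23.0 to 46.0 CPM in PRL, with a median of 28.1. The 3 highest of the 12 values were PRL replicate 4, SAL replicate 4 and PRL replicate 3. The means were 24.9 ± 7.74 and 31.2 ± 8.30 CPM (SD, n = 6), with a log2 fold change of 0.17 (SE 0.31), edgeR adjusted p = 0.999 and exact permutation p = 0.199.

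Ireb2 (NM_022655.3), whose protein senses iron and acts on the ferritin and transferrin receptor mRNAs, had 7 reads in each group of males. They fell as 0, 0, 2 and 5 over the LP libraries, 1, 2, 2 and 2 over SP12wk, and 1, 1, 2 and 3 over SP28wk. The means were 76.3 ± 94.4, 81.3 ± 39.8 and 47.6 ± 8.44 CPM (SD, n = 4), and the log2 fold changes of 0.02, -0.40 and -0.37 had standard errors of 0.89 to 0.95 (edgeR adjusted p = 0.955 to 1). In females it ran from 2.70 to 24.5 CPM in SAL, with a median of 17.8, and from 8.51 to 34.5 CPM in PRL, with a median of 12.0. The means were 15.9 ± 8.94 and 16.6 ± 10.4 CPM (SD, n = 6), and the log2 fold change was -0.18 (SE 0.43, edgeR adjusted p = 0.999). The ratio of mean CPM had the opposite sign, at 0.07 on the log2 scale.

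The members were set beside 68 other genes of iron, heme, zinc and copper handling. Of these 26 were tested in experiment 1 and 53 in experiment 2, and 0 passed an adjusted p of 0.05 by edgeR's quasi-likelihood test in any comparison. At an unadjusted p under 0.05, 2 were higher and 1 lower in SP12wk than in LP, 2 were higher in SP28wk than in SP12wk, 3 were higher in SP28wk than in LP, and 1 was higher in PRL than in SAL. Over all genes tested the shares at this level were 4.56% higher and 2.69% lower, 4.6% and 1.49%, 6.61% and 1.97%, and 2.54% and 2.34%, in the same order of comparisons. The medians of their log2 fold changes were -0.01, 0.44, 0.39 and 0.08, and those of all genes tested -0.001, 0.16, 0.18 and 0.03. For the members tested the medians were -0.02, 0.06, -0.15 and -0.09. Among the 68 other genes, 1 of the 2 higher in SP12wk than in LP, Iscu, passed the filter only through short photoperiod libraries.

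Among the copper and iron-sulfur genes, Sod1, the copper and zinc superoxide dismutase, had 483 ± 270 CPM in LP, 968 ± 331 in SP12wk and 1147 ± 326 in SP28wk (SD, n = 4). Its log2 fold change in SP28wk against LP was 1.51 (SE 0.48), with adjusted p = 0.219 by edgeR's quasi-likelihood test, and 1.12 in SP12wk against LP (adjusted p = 0.603). Bola2, which takes part in iron-sulfur cluster transfer, had 385 ± 320, 584 ± 118 and 790 ± 85.3 CPM. Atox1, a copper chaperone, had 705 ± 553, 1003 ± 443 and 1213 ± 373 CPM. In LP replicate 2, the library that stood apart, Sod1 was at 112 CPM, Bola2 at 56.1 and Atox1 at 0, each the lowest value of its LP group.

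Among the zinc genes, the exporter Slc30a4 had 13 reads in LP and 2 in SP12wk, or 160 ± 53.4 and 22.8 ± 26.6 CPM (SD, n = 4). Its log2 fold change was -2.44 (SE 1.01), with adjusted p = 0.603 by edgeR's quasi-likelihood test, and it had 37.2 ± 25.9 CPM in SP28wk. The exporter Slc30a1 rested on 4 LP reads, 1 SP12wk read and 8 SP28wk reads. Mtf1, the metal-sensing factor that switches on metallothionein genes, had 220 ± 178 CPM in LP and 106 ± 56.0 in SP28wk (log2 fold change -0.56, SE 0.65, edgeR adjusted p = 0.906). Slc30a5 had 65.3 CPM in LP and 23.0 in SP28wk, from 5 and 4 reads.

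Of the iron-sulfur and iron chaperone genes, Pcbp1, which hands iron to ferritin, had 515 ± 259 CPM in LP, 221 ± 85.8 in SP12wk and 462 ± 77.2 in SP28wk (SD, n = 4). Its log2 fold change was -0.94 (SE 0.55) in SP12wk against LP and 1.21 (SE 0.53) in SP28wk against SP12wk, with edgeR adjusted p = 0.669 and 0.732. Isca1 had 105 ± 70.8 CPM in SP12wk and 219 ± 92.1 in SP28wk (edgeR adjusted p = 0.798). The scaffold Iscu had 0 reads in LP and 4 in SP12wk (edgeR adjusted p = 0.605). It had a count in 4 libraries, all of short photoperiod, and passed the filter only through these, so its p is no test of the difference. Slc22a17, Ccs and Neo1, with 4, 7 and 3 reads in SP12wk, had the smallest p among the genes lower in SP28wk than in SP12wk, at edgeR adjusted p = 0.980 each.

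In females the zinc importer Slc39a4 had 4 reads in SAL and 17 in PRL, or 1.84 ± 2.10 and 6.16 ± 3.34 CPM (SD, n = 6). Its log2 fold change was 1.70 (SE 0.73), with adjusted p = 0.905 by edgeR's quasi-likelihood test. The zinc importer Slc39a10 had 14 and 26 reads, and Mt3, the metallothionein best known from brain, had 46 and 75. Slc30a1 had 19.3 ± 6.99 CPM in SAL and 12.0 ± 6.70 in PRL, Atox1 had 1146 ± 181 and 979 ± 141, and Bola2 had 795 ± 222 and 688 ± 185. Each of these 5 had an edgeR adjusted p = 0.999.

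The rest of the iron pathway could be read mainly in experiment 2. Ferroportin, the iron exporter encoded by Slc40a1, had 68.3 CPM in SAL and 81.4 in PRL, from 319 reads. Megalin, the endocytic receptor encoded by Lrp2, had 451 and 428 CPM from 2142 reads. The iron sensors Aco1 and Fbxl5 had 165 and 105 reads, heme oxygenase Hmox1 28 and the divalent metal transporter Slc11a2 15. The oxidase Heph had 4 reads, Lcn2 1 and Tfr2 1.

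Kidney markers were counted in both experiments, though not all of them. The proximal tubule marker Cubn had no row in either, and the collecting duct marker Aqp2 none in experiment 1. The collecting duct list had no read in LP replicate 2, and the thick limb and distal tubule list none in SP12wk replicate 2. The proximal tubule list gave 2919 ± 926 CPM in LP, 2505 ± 300 in SP12wk, 2412 ± 274 in SP28wk (SD, n = 4), 1468 ± 374 in SAL and 1573 ± 434 in PRL (SD, n = 6), with 6 of its 7 genes listed. Of these, Aqp1 had means of 996 CPM in LP and 358 in SP28wk, and Lrp2 1032 and 902. Slc34a1, Slc5a2, Miox and Slc22a6 had higher means in SP28wk than in LP. Red cell transcripts summed to 14205 to 28899 CPM in LP, 17519 to 44112 in SP12wk, 20995 to 33240 in SP28wk, 9600 to 18120 in SAL and 8912 to 19498 in PRL, and these ranges overlapped within each experiment. In experiment 1 Hba-a1 and Hba-a2 had 2317 and 2263 reads, and Hbb-bs and Hbb-bt 2222 and 2216. In experiment 2 they had 10086 and 10046, and 18797 and 18757. The same reads may thus be counted on both genes of a pair, so these sums are uncertain in level. Adipose markers summed to 112 ± 88.1 CPM in SAL and 175 ± 77.3 in PRL, mostly Fabp4. Macrophage markers, of cells that recycle iron, were at 35.7 ± 5.25 and 35.7 ± 11.8 CPM there, and in males they had 3 reads in SP12wk, 2 in SP28wk and none in LP. Their part in the values of the members was not tested.

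Some genes followed the members closely across the 12 libraries of experiment 2, among 1841 genes with a median of at least 20 counts, by Pearson r of log2(CPM + 1). For Fth1 these were Aif1l (0.935), Ctsc (0.927) and Serpinf2 (0.921). For Ftl1 they were its copy Ftl1-ps2 (0.986), Higd1a (0.887) and Nat8f1 (0.874). Mt1 had lower values, with Ccdc124 at 0.721, Prdx5 at 0.711 and the globin gene Hba-a2 at 0.701, and Mt2 had Rpl7 at 0.850, S100a11 at 0.828 and Gm12174 at 0.825. These values describe libraries of 1 flow cell and are the highest of many, so no p is given.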

How the data were processed

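Kidney mRNA of 24 hamsters was sequenced on Oxford Nanopore flow cells, 12 libraries on each. The methods name a direct cDNA kit and the labels a PCR-cDNA kit with the same catalogue numbers. The authors called bases with Guppy, trimmed and filtered reads with Porechop and Filtlong, and aligned them to mouse RefSeq with Minimap2. The submitters' processing notes name minimap2 and Salmon without a role. The authors deposited estimated counts per mouse transcript, not normalized, and a few are not whole (2868 of 439944 values in experiment 1 and 3447 of 859080 in experiment 2). No gene was given a position or sequence, since no genome was used here.

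For each gene symbol the transcript with the highest total was kept, because transcripts of a gene often had the same counts. Adding them would have counted reads repeatedly. Counts were rounded and tested in R 4.3.3 with the quasi-likelihood F test of edgeR 4.0.16 and TMM scaling, 1 model per experiment without covariates, keeping genes counted in 4 or more of 12 libraries (experiment 1) or 6 or more of 12 (experiment 2). P-values were adjusted over all genes tested by Benjamini-Hochberg, with a threshold of 0.05. The standard error was the size of the log2 fold change divided by the square root of F. Mean CPM and count ratios were set against each other by exact permutation of libraries, two-sided, and correlations with 100000 permutations. Counting intervals treat pooled reads as independent and cover counting error only. DESeq2 1.42.0 was an alternative. The fit was tested on simulated data. Replicates are separate hamsters by the design text.

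The members and the other lists were chosen with earlier results of these data known. Named were all members, the 3 listed genes with the smallest p in each direction per comparison, and the 3 genes most like Fth1, Ftl1, Mt1 and Mt2. Genes named for their level alone, as Slc40a1, were chosen after their values were seen. Alternatives were another transcript summary, filters, scalings, DESeq2, a replicate block and leaving out libraries. Library totals without TMM, the exact permutation test of CPM and the fit without LP replicates 2 and 3 were chosen after seeing the data.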

Additional observations from a re-analysis of the deposited data

Results flagged for a closer look

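Of the 38 combinations of a member and a group that were examined, 7 held a library far from the rest of its group by Dixon's criterion. Chance meets it in about 1 in 20 groups of continuous values, a rate that does not hold for the 4 cases of experiment 1, where a single library with a read among 3 at 0 meets it by construction. These were Mt2 in SP12wk replicate 4 at 56.5 CPM (2 reads), Tfrc in SP12wk replicate 1 at 40.9 CPM (1 read), Trf in LP replicate 4 at 38.8 CPM (1 read) and Trf in SP28wk replicate 3 at 28.6 CPM (1 read).

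In experiment 2, Mt1 in SAL replicate 1 was at 146 CPM, the next highest library at 76.8, and it held 54 of the 173 Mt1 reads of SAL. Ncoa4 in SAL replicate 6 was at 0.0 CPM, and the next lowest SAL library at 29.7. Ncoa4 in PRL replicate 4 was at 59.8 CPM and the next highest PRL library at 31.6.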

How the results depend on the processing

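No member passed the adjusted threshold under any alternative, and its smallest adjusted p over all edgeR and DESeq2 fits was 0.0782 (Trf without SAL replicate 6). Depth limits experiment 1: Mt1, Mt2, Tfrc, Trf, Ireb2 and Ncoa4 had 0 to 5 reads per library. The number of genes called in PRL against SAL (0) was 1 with counts added over transcripts, 92 without a filter and 52 with the replicate block, and 0 to 44 on leaving out 1 library. The 1 call in SP12wk against LP was 0 with DESeq2, added transcripts, no TMM, no filter, the stricter filter or the replicate block, 2 without LP replicates 2 and 3, and 0 to 9 on leaving out 1 library. The 11 calls in SP28wk against LP were 2 with DESeq2, 0 with added transcripts, 5 with the stricter filter, 2 without LP replicates 2 and 3, and 8 to 56 on leaving out 1 library. The 7 calls in SP28wk against SP12wk were 2 with DESeq2, 0 with added transcripts, 2 with the stricter filter and 2 to 8 on leaving out 1 library. The replicate block gave 6 and 12 calls in SP28wk against SP12wk and LP and changed no call of a member. Replicate numbers carried no stated meaning. Deviations from group means correlated at -0.0953 to 0.206 between libraries with the same number and at -0.213 to 0.211 between others in experiment 1, and at -0.181 to 0.237 and -0.237 to 0.214 in experiment 2, so the numbers were not taken to pair. The cause was not tested for any of these.

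Changes of sign occurred in small log2 values. Fth1 in SP28wk against SP12wk (0.06) was -0.0996 with DESeq2, -0.0983 with its size factors in edgeR, -0.0437 with added transcripts, -0.101 by mean CPM, -0.104 without TMM and -0.0506 with the stricter filter. Fth1 was 0.0238 in SP12wk and 0.0297 in SP28wk against LP without LP replicates 2 and 3. Ftl1 in SP28wk against SP12wk was -0.000504 by mean CPM. Ireb2 in SP12wk against LP (0.02) was -0.00925 with DESeq2 size factors, -0.0124 with added transcripts, -0.131 without TMM, -0.0237 with the stricter filter and -0.470 without LP replicates 2 and 3, and in PRL against SAL it was 0.0676 by mean CPM. Mt2 in SP12wk against LP was 0.00966 without a filter. Ncoa4 in PRL against SAL was 0.0254 with added transcripts, 0.131 by mean CPM and 0.0636 with the replicate block.

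Leaving out 1 library at a time gave these ranges where the sign turned. The log2 ratio of Fth1 to Ftl1 ran from -0.0291 to 0.151 in PRL against SAL and from -0.628 to 0.173 in SP28wk against SP12wk, and that of Mt1 to Mt2 from -0.707 to 0.0700 in PRL against SAL. The r of Fth1 and Ftl1 in experiment 1 ran from -0.369 to 0.119, and that of Mt1 and Mt2 in experiment 2 from -0.483 to 0.283. Log2 fold changes in SP28wk against SP12wk ran from -0.124 to 0.150 for Fth1, -0.125 to 0.641 for Ftl1 and -0.868 to 2.92 for Mt2. In SP12wk against LP they ran from -0.395 to 1.25 for Ireb2, -2.42 to 0.458 for Mt2 and -0.639 to 0.0991 for Ncoa4. In SP28wk against LP they ran from -0.830 to 0.836 for Ireb2, -0.874 to 1.09 for Mt2 and -1.05 to 0.556 for Tfrc, and in PRL against SAL from -0.325 to 0.150 for Ncoa4.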
